A study of Mus musculus with 30 samples.

Results

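The genes examined here code for LIM-only proteins. They are Crip1, Crip2, Csrp1 and Csrp2 of the cysteine-rich families, and Fhl1 and Fhl2 of the FHL family. They were chosen by gene symbol from the deposited expression table, in which all 6 were present among 14685 genes, and all 6 passed the filter on low values. Crip1 was picked because its level was strongly lower in the later populations of the Sp1 mutant, so every Crip1 value that sets the Sp1 mutant against another genotype is given as a description with no test. The other 5 genes were named by family. RNA-seq was carried out on mouse E14 embryonic stem cells (ESC) differentiated in vitro towards blood, in 5 populations of 3 genotypes with 2 samples in each of the 15 groups. The populations were ESC, Flk1+ cells purified with magnetic beads from embryoid bodies, and 3 fractions sorted at day 2 of blast culture, all of them KIT+. HE1 and HE2 were both Tie2+ and differed in CD41, which was absent from HE1 and present on HE2, and progenitor cells were CD41+ and had lost Tie2. The genotypes were wild type (WT), Sp1ΔDBD/ΔDBD, in which Sp1 lacks its DNA-binding domain and a truncated protein remains, and the knockout Sp3−/−. All lines share the E14 background and were kept on feeder cells before the last, feeder-free passages. Each genotype is a line derived from E14, so a difference between genotypes is also a difference between lines. The differentiation methods of the study let the time in embryoid bodies vary with the cell line and do not state it for each line. Flk1+ cells, and the blast cultures grown from them, may therefore differ in culture time between genotypes. The methods of the study call the samples of a group biological replicates. Neither these nor the labels say whether they were separate differentiations, and p-values measure the spread between these samples only.

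LIM domains are zinc-binding modules that hold proteins together. Proteins made of little else act as adaptors, the CSRP proteins on actin filaments and with serum response factor (SRF) and GATA factors in smooth muscle genes, FHL1 in the contractile apparatus and FHL2 both at focal adhesions and as a nuclear cofactor. CRIP1 is the shortest of them, and CRIP2 is known from endothelium. Sp1 and Sp3 are zinc finger transcription factors that bind GC-rich elements, the GC boxes, in many promoters.

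Sequence upstream of annotated start sites is shown because Sp1 and Sp3 bind GC boxes and because Crip1 and Crip2 lie side by side. Crip2 (chr12:113140236-113145506) and Crip1 (chr12:113146316-113153879) are on the plus strand of mouse GRCm38 with 809 bases between them in the GENCODE annotation. The 250 bases before the start sites of Crip1, Crip2 and Fhl2 follow, from RefSeq on GRCm38.p6. Capitals mark the GC box letters GGGCGG and their reverse complement CCGCCC, and in Fhl2 also a CArG box, the element that SRF binds. The Crip1 stretch is chr12:113151762-113152011, which lies in introns of longer annotated Crip1 transcripts and in no exon. The Crip2 stretch is chr12:113139986-113140235, which overlaps no annotated transcript. The Fhl2 stretch is chr1:43163962-43164211 on the minus strand, within introns of longer Fhl2 transcripts.
Crip1: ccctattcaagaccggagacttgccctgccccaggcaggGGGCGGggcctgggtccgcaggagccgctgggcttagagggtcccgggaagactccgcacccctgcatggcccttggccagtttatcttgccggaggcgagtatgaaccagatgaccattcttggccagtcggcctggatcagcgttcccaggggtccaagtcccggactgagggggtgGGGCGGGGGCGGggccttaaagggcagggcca
Crip2: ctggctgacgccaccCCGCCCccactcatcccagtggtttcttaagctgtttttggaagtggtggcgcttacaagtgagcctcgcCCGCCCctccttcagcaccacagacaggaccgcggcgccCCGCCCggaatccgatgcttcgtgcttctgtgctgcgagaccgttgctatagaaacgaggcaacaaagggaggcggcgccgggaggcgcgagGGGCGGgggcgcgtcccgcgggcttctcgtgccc
Fhl2: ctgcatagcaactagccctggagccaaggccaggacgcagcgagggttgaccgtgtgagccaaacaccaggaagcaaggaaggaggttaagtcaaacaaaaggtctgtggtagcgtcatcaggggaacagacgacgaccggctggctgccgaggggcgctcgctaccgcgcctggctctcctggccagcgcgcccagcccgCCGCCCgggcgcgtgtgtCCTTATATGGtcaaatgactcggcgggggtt

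Windows of 250 bases before to 50 bases after a start site were present for 5 of the 6 genes, 9 windows in all, and 5 of these held a GC box on either strand. The Crip1 window held 3 copies, with first bases at −211, −32 and −26 from the start site, the last pair directly adjoining. The windows of the 2 Crip2 start sites held 4 and 5 copies, of which a pair in the latter window shares bases. Of all 32851 windows in the reference, 35.7% held at least 1 GC box, 10.7% at least 3 and 5.49% at least 4. At Csrp1, 1 of 2 windows held 1 copy, at Fhl2 1 of 2 held 3 (at −49 in the stretch shown and at 5 and 30 after the start site), and at Fhl1 neither held any. A CArG box was found in 1 window of Fhl1 and in both windows of Fhl2, against 1.63% of all windows. These matches are a description of letters, and binding was not measured here.

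**Figure D1:**
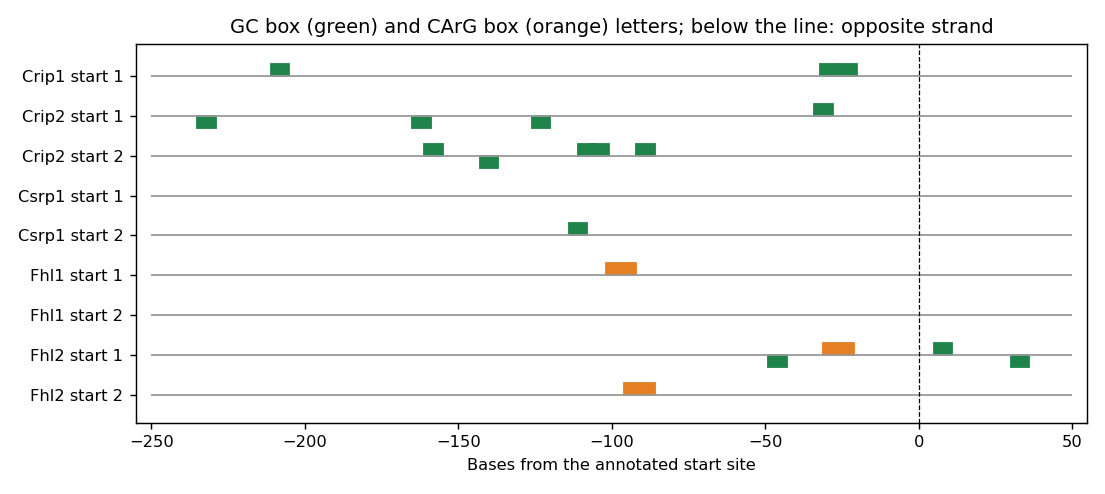
GC box letters (green) and CArG box letters (orange) in the 9 windows from 250 bases before to 50 bases after the annotated start sites of Crip1, Crip2, Csrp1, Fhl1 and Fhl2; the horizontal axis is the distance in bases from the start site, and blocks below a line are on the opposite strand. Crip1 has GC boxes at −211, −32 and −26, the Crip2 windows have 4 and 5, and both Fhl1 windows have none.

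Csrp1 is at chr1:135720061-135752232 on the plus strand, Csrp2 at chr10:110919789-110939622 on the plus strand, Fhl1 at chrX:56731787-56793346 on the plus strand and Fhl2 at chr1:43123074-43196984 on the minus strand. All 6 are annotated as protein coding. Levels are FPKM, a read abundance scaled to transcript length and library size and then quantile normalised between samples, and differences are on the log2(FPKM + 0.1) scale with a standard error (SE) from limma. A gene was called where the Benjamini-Hochberg adjusted p over 14525 genes was under 0.05. As a check on the labels, Sp3 was at 3.38 to 7.79 FPKM in the 10 Sp3−/− samples and at 25.9 to 58.1 FPKM in the 10 WT samples. The Sp1 transcript, whose level over the whole gene does not show the deletion, was at 14.8 to 40.5 FPKM in the Sp1 mutant and 24.9 to 52.4 FPKM in WT.

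Population markers moved with the sort labels. The summed level of 5 pluripotency genes was 1086 to 1331 FPKM in ESC and at most 2.16 FPKM in the sorted fractions. In Flk1+ cells it was 41.25 and 31.9 FPKM in WT, 54.03 and 21.56 FPKM in Sp1ΔDBD/ΔDBD, and 94.89 and 97.6 FPKM in Sp3−/−. The sum of 5 mesoderm genes there was 339.4 and 318 FPKM, 340.1 and 376 FPKM, and 544.3 and 594.3 FPKM in the same order. The part of these sums in the Flk1+ differences was not tested. The sum of 6 endothelial genes was highest in HE1. There it was 832.8 and 1180 FPKM in WT, 888.5 and 1136 FPKM in Sp1ΔDBD/ΔDBD, and 769.7 and 770.6 FPKM in Sp3−/−. In HE2 it was 507.8 and 591.2 FPKM, 520.6 and 365 FPKM, and 361.9 and 377.8 FPKM in the same order. Itga2b, which codes for CD41, was detected in HE1, which was gated as CD41−. It was at 34.8 and 49.2 FPKM in WT HE1, 42.8 and 55.7 FPKM in Sp1ΔDBD/ΔDBD HE1, and 83.3 and 81.8 FPKM in Sp3−/− HE1. The sum of 7 blood progenitor genes, Itga2b among them, was 58.98 and 79.34 FPKM in WT HE1. It was 63.2 and 87.37 FPKM in Sp1ΔDBD/ΔDBD HE1, and 126 and 116.3 FPKM in Sp3−/− HE1. Genes of other cell types were also present. The sum of 7 smooth muscle and mesenchyme genes was 1940 FPKM in WT HE1 replicate 1 and 383.3 FPKM in replicate 2, 1092 and 260.5 FPKM in Sp1ΔDBD/ΔDBD HE1, and 228.4 and 149.6 FPKM in Sp3−/− HE1. A list of 4 epithelial genes summed to 710.8 and 63.02 FPKM in WT HE1. The sum was 223.1 and 9.13 FPKM in Sp1ΔDBD/ΔDBD HE1, and 72.63 and 25.59 FPKM in Sp3−/− HE1. In WT HE1 replicate 1 Krt8 was at 386 and Krt18 at 323 FPKM, against 2.33 FPKM for Cdh1 and 0.115 FPKM for Epcam. Epcam was at most 0.448 FPKM in any HE1 sample, so this sum was largely that of the 2 keratins. In bulk samples fewer cells of a type and less RNA per cell cannot be told apart.

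In WT cells all 6 genes rose from Flk1+ cells to HE1, where each of the 6 had its highest WT level. Every mean was lower in HE2 and lower again in progenitor cells, with calls for 4 of 6 genes from HE1 to HE2 and for Crip2 from HE2 to progenitor cells. Over the 4 successive steps, 12 of 24 differences were called. Beside this, 52.2% of all genes were called in either direction from ESC to Flk1+ cells. At the later steps 23.5%, 10.2% and 7.78% of all genes were called in the direction of the 6.

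Crip2 showed the steepest course. It was at 17.0 and 15.6 FPKM in WT ESC, 11.4 and 7.11 FPKM in Flk1+ cells, 116.8 and 120.3 FPKM in HE1, 47.2 and 47.3 FPKM in HE2, and 13.1 and 7.02 FPKM in progenitor cells. The HE1 samples stood well above every other WT sample, and no range in this series overlapped the next from Flk1+ cells onwards. The rise to HE1 was 3.70 on the log2 scale (SE 0.34, adjusted p = 4.21e-08), followed by falls of −1.33 to HE2 (SE 0.34, adjusted p = 0.00907) and −2.29 to progenitor cells (SE 0.34, adjusted p = 0.000106).

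Crip1 followed the same order in WT. It was at 48.3 and 38.4 FPKM in ESC, 12.3 and 9.98 FPKM in Flk1+ cells, 113.5 and 126.9 FPKM in HE1, 66.7 and 34.3 FPKM in HE2, and 21.3 and 15.9 FPKM in progenitor cells. Unlike Crip2 it was nearly as high in ESC as in HE2, whose ranges overlapped. The rise from Flk1+ cells to HE1 was 3.43 (SE 0.95, adjusted p = 0.00524). The other WT steps of Crip1 were −1.95 to Flk1+ cells, −1.32 to HE2 and −1.37 to progenitor cells, with adjusted p = 0.0954, 0.355 and 0.42. These WT samples are also the controls of the contrast on which Crip1 was picked, so the p-values of these steps are partly set by that choice.

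The SE of Crip1 was set largely by a pair of samples outside these steps. Crip1 was at 4.37 FPKM in Sp1ΔDBD/ΔDBD progenitor replicate 1 and at 0.00816 FPKM in replicate 2, the lowest value in that sample, which it shared with 1294 genes in all. With replicate 2 left out, an alternative chosen after seeing the data, the SE fell from 0.95 to 0.40. It was also 0.40 with replicate 1 left out in its place.

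Csrp1 had the highest mean of the 6 in WT HE1, at 298.6 and 150.5 FPKM, but in replicate 2 Csrp2 was higher (161.8 FPKM). Csrp1 stayed high in HE2 (138.8 and 113.5 FPKM) and progenitor cells (88.5 and 99.1 FPKM). It was at 35.1 and 21.2 FPKM in ESC and 32.0 and 35.6 FPKM in Flk1+ cells. Its rise to HE1 was 2.65 (SE 0.30, adjusted p = 6.53e-07), and the later steps, −0.76 and −0.42, had adjusted p = 0.0821 and 0.438. Csrp2, its close relative in the actin cytoskeleton, was already at 94.2 and 77.1 FPKM in ESC and 61.3 and 70.1 FPKM in Flk1+ cells. It was at 197.9 and 161.8 FPKM in HE1, 74.1 and 38.7 FPKM in HE2, and 31.8 and 10.9 FPKM in progenitor cells, so that it ended below its ESC level while Csrp1 ended above it. Csrp2 rose by 1.45 to HE1 (SE 0.54, adjusted p = 0.0294) and fell by 1.74 to HE2 (adjusted p = 0.026).

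Fhl1 was at 21.6 and 14.3 FPKM in WT ESC, 15.4 and 18 FPKM in Flk1+ cells, 73.1 and 36.5 FPKM in HE1, 26.4 and 16.5 FPKM in HE2, and 18.8 and 9.83 FPKM in progenitor cells. Only the HE1 samples stood apart from the rest. Fhl2 was the lowest of the 6 in every WT population, at 0.654 and 0.593 FPKM in ESC, 1.47 and 1.22 FPKM in Flk1+ cells, 14.3 and 9.45 FPKM in HE1, 5.64 and 2.20 FPKM in HE2, and 3.56 and 2.15 FPKM in progenitor cells. The rises to HE1 were 1.63 for Fhl1 (SE 0.37, adjusted p = 0.00114) and 3.02 for Fhl2 (SE 0.50, adjusted p = 4.85e-05), and the falls to HE2 were −1.30 (adjusted p = 0.0174) and −1.69 (adjusted p = 0.021).

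Of all genes tested in WT, 52.2% were called in either direction from ESC to Flk1+ cells, where 1 of the 6 was called. In the direction the 6 genes moved, 23.5% of all genes were called from Flk1+ cells to HE1, 10.2% from HE1 to HE2 and 7.78% from HE2 to progenitor cells. WT HE1 replicate 1, which had the highest smooth muscle and epithelial marker sums, was also the higher replicate for Csrp1, Csrp2, Fhl1 and Fhl2. The part of these markers in the result was not tested. Without it the rise to HE1 remained called for Csrp1 (2.15, adjusted p = 3.1e-05), Fhl1 (1.13, adjusted p = 0.037), Fhl2 (2.73, adjusted p = 0.00152) and Crip2 (3.73, adjusted p = 1.87e-06), and the HE1 to HE2 calls of Csrp2, Fhl1 and Fhl2 were lost (adjusted p = 0.136, 0.243 and 0.156).

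Other WT calls were lost when a sample was left out, which also raised the SE. The rise of Csrp2 to HE1 was 1.3 to 1.59 without any 1 of its 4 samples and was then not called (adjusted p from 0.0633 to 0.127). The fall of Csrp2 to HE2 was also lost without HE1 replicate 2 (adjusted p = 0.066) and without HE2 replicate 2 (0.202), and the latter also ended the calls of Fhl1 (0.156) and Fhl2 (0.242). With HE1 and HE2 fitted alone, all 4 falls to HE2 were lost (adjusted p from 0.0535 to 0.0697). The 1 ESC to Flk1+ call, the −0.85 of Crip2 (adjusted p = 0.0428), was lost without ESC replicate 1 (0.146), ESC replicate 2 (0.0973) or Flk1+ replicate 2 (0.334), and stood at 0.0501 to 0.0508 without single ESC or HE1 samples of Sp3−/−.

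In Sp3−/− cells, which the choice of Crip1 did not use, 9 of 24 steps were called. Beside this, 48.8% of all genes were called in either direction at the first step. At the later steps 20.7% of all genes were called higher, then 7.61% and 5.81% lower. Crip2 was at 26.8 and 26.2 FPKM in ESC, 9.82 and 12.7 FPKM in Flk1+ cells, 114.7 and 112.8 FPKM in HE1, 39.6 and 47.1 FPKM in HE2, and 5.41 and 6.20 FPKM in progenitor cells, and all 4 of its steps were called (−1.24, 3.34, −1.40 and −2.88, with the highest adjusted p at 0.00945). Csrp1 rose to HE1 by 2.26 (adjusted p = 6.4e-06) and Fhl1 by 1.39 (adjusted p = 0.00526).

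Crip1 was at 52.1 and 55.6 FPKM in Sp3−/− ESC, 9.93 and 9.80 FPKM in Flk1+ cells, 33.0 and 32.1 FPKM in HE1, 10.7 and 12.1 FPKM in HE2, and 4.29 and 6.12 FPKM in progenitor cells. Its peak in this genotype was in ESC and not in HE1. The fall from ESC to Flk1+ cells was called (−2.44, adjusted p = 0.0413), and the step to HE1 was 1.71 (adjusted p = 0.158). Without Sp1ΔDBD/ΔDBD progenitor replicate 2, left out after seeing the data, the SE of these steps was 0.40 in place of 0.95.

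From ESC to Flk1+ cells Csrp2 fell by 1.58 (adjusted p = 0.0201) and Fhl2 rose by 1.33 (adjusted p = 0.0336) in Sp3−/−. The ESC to Flk1+ calls of Crip1 and Csrp2 were lost without any 1 of their 4 samples (adjusted p from 0.114 to 0.128 and from 0.0578 to 0.0916), that of Crip2 without Flk1+ replicate 1 (0.055), and that of Fhl2 without ESC replicate 1 (0.504) or Flk1+ replicate 2 (0.242). The fall of Crip2 to HE2 was lost without HE1 replicate 1 (0.0622), HE1 replicate 2 (0.0548) or HE2 replicate 1 (0.0787). Of all genes, 48.8% were called in either direction from ESC to Flk1+ cells, 20.7% were called higher to HE1, 7.61% lower to HE2 and 5.81% lower to progenitor cells.

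**Figure D2:**
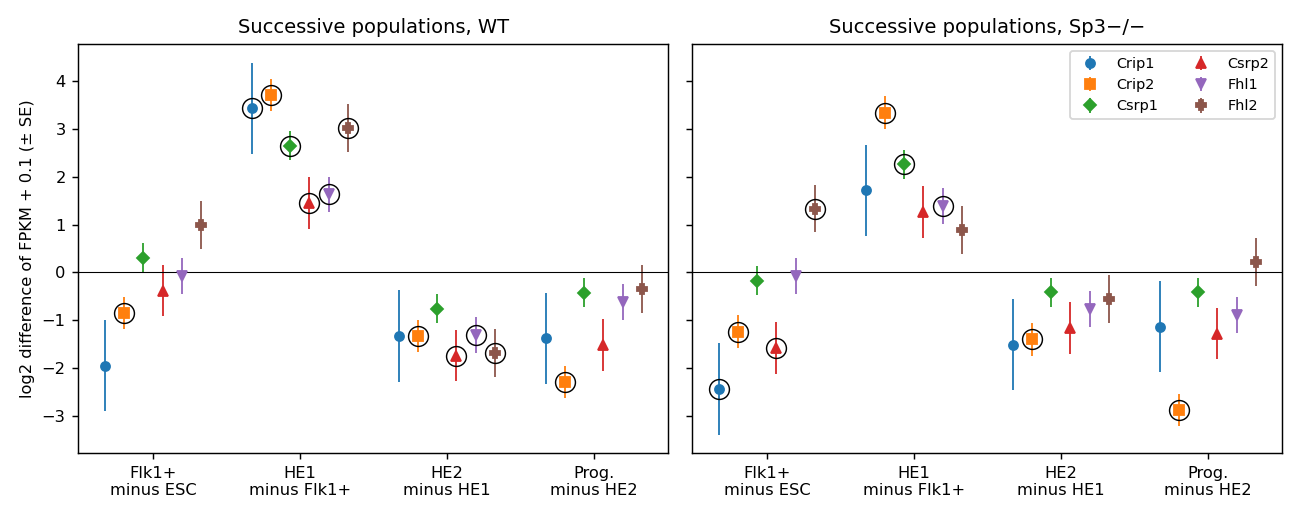
Difference of each gene between successive populations in WT (left) and Sp3−/− (right), on the log2(FPKM + 0.1) scale; points are limma estimates, bars are ± SE and rings mark adjusted p under 0.05. All 6 genes rose from Flk1+ cells to HE1 in WT, and Crip2 was called at all 4 steps in both genotypes.

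Crip1 in the mutants is described next, first against the mutant by which it was picked. In Sp1ΔDBD/ΔDBD cells Crip1 was at 27.3 and 17.2 FPKM in ESC, 7.49 and 6.91 FPKM in Flk1+ cells, 11.2 and 4.94 FPKM in HE1, 2.67 and 0.949 FPKM in HE2, and 4.37 and 0.00816 FPKM in progenitor cells. All mutant samples were below both WT samples of their population, and the ratio of WT to mutant means was 1.95 in ESC, 1.54 in Flk1+ cells, 14.9 in HE1, 27.9 in HE2 and, for progenitor cells, 8.48. The log2 differences were −0.99, −0.61, −4.00, −4.81 and −4.73 in order. The last was −2.05 without progenitor replicate 2 and −7.42 without replicate 1. In this mutant Crip1 was highest in ESC, and the WT rise from Flk1+ cells to HE1 was not seen in the means (7.20 and 8.05 FPKM). The comparison with WT called 6.06% of all genes in ESC, 5.54% in Flk1+ cells, 10% in HE1, 9.67% in HE2, and for progenitor cells 8.78%.

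Over the 15 groups the mean level of Crip1 ran from 120.2 FPKM in WT HE1 to 1.81 FPKM in Sp1ΔDBD/ΔDBD HE2. Sp3−/− ESC, WT HE2 and WT ESC came after WT HE1 (53.9, 50.5 and 43.3 FPKM) and each overlapped the next. They were followed by Sp3−/− HE1 (32.5 FPKM), Sp1ΔDBD/ΔDBD ESC (22.3 FPKM) and WT progenitor cells (18.6 FPKM), of which the last pair overlapped. Sp3−/− HE2 and WT Flk1+ cells overlapped at 11.4 and 11.1 FPKM. Below them Sp3−/− Flk1+ cells (9.86 FPKM) were higher than both Sp1ΔDBD/ΔDBD Flk1+ samples (7.20 FPKM), with Sp1ΔDBD/ΔDBD HE1 (8.05 FPKM) spanning both. Progenitor cells of Sp3−/− (5.21 FPKM) and Sp1ΔDBD/ΔDBD (2.19 FPKM) and Sp1ΔDBD/ΔDBD HE2 came last and overlapped.

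In Sp3−/− cells the mean of Crip1 was 27.1% of WT in HE1, 22.6% in HE2, and for progenitor cells 28.0%, and 124% in ESC and 88.7% in Flk1+ cells. In each of the 3 sorted fractions both Sp3−/− samples were below both WT samples. With all 30 samples in the fit, the differences of −1.88, −2.06 and −1.82 (SE 0.95) were not called (limma adjusted p = 0.221, 0.157 and 0.262). The SE again held the pair of Sp1ΔDBD/ΔDBD progenitor samples, which are not part of this comparison. Without replicate 2 or replicate 1 of that group, omissions chosen after seeing the data, the same differences had an SE of 0.40. With a pseudocount of 1, limma gave them adjusted p = 0.0215, 0.0134 and 0.0442. With each population fitted alone these were 0.0821, 0.127 and 0.627. The ESC and Flk1+ differences of Crip1, 0.32 and −0.16, were called in none of these. The WT samples here are shared with the comparison on which Crip1 was picked, so these p-values are partly set by that choice.

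**Figure D3:**
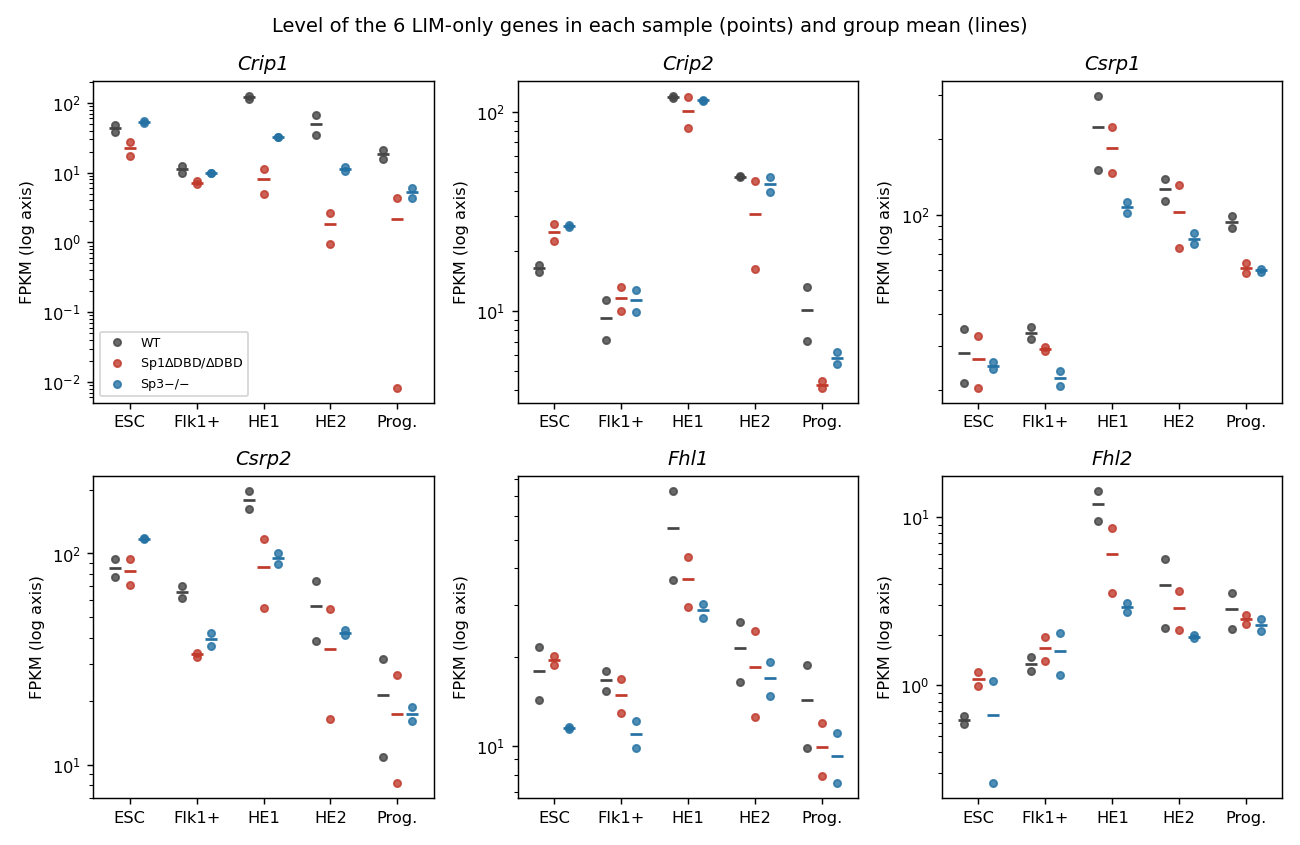
FPKM of each gene on a log axis in every sample (points) with the group mean (lines), for the 5 populations and the 3 genotypes. Crip1 of both mutants lies below WT in HE1, HE2 and progenitor cells, with 1 Sp1ΔDBD/ΔDBD progenitor sample at 0.00816 FPKM, while Crip2 is at 82.6 FPKM or more in every HE1 sample.

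Crip2, the neighbour of Crip1, differed from it in HE1. Crip2 was at 118.8 and 82.6 FPKM in Sp1ΔDBD/ΔDBD HE1 against 116.8 and 120.3 FPKM in WT, which overlapped (log2 difference −0.26, SE 0.34, adjusted p = 0.719). In Sp1ΔDBD/ΔDBD it was at 27.2 and 22.5 FPKM in ESC, 9.93 and 13.2 FPKM in Flk1+ cells, 44.8 and 16.2 FPKM in HE2, and 4.42 and 4.09 FPKM in progenitor cells. The ESC samples were above both WT samples, and the HE2 and progenitor samples were below. Progenitor cells, where 8.78% of all genes were called, gave the 1 called difference among 25 tested in this mutant, −1.16 (SE 0.34, adjusted p = 0.0391). This call was lost without WT replicate 1 (0.341), mutant replicate 1 (0.112), mutant replicate 2 (0.117) or either Sp3−/− ESC sample (0.0506 and 0.0507), and also with a pseudocount of 1 (0.0518), without the intensity trend (0.0537) and with progenitor cells fitted alone (0.179). The HE2 difference of −0.81 (adjusted p = 0.148) was called only without mutant replicate 1, the higher sample (0.00337). In Sp3−/− the differences of Crip2 from WT ran from −0.72 in progenitor cells to 0.70 in ESC, with adjusted p of at least 0.207.

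Csrp1 and Fhl2 gave the called differences in Sp3−/−, both in HE1 and both lower, which made 2 of 30 tested. Csrp1 was at 112.5 and 101.4 FPKM in Sp3−/− HE1 against 298.6 and 150.5 FPKM in WT (log2 difference −0.99, SE 0.30, adjusted p = 0.0411), and the groups did not overlap. Fhl2 was at 3.09 and 2.74 FPKM against 14.3 and 9.45 FPKM (−1.96, SE 0.50, adjusted p = 0.0169), again with no overlap. HE1 of the Sp1 mutant lay between, with Csrp1 at 223.9 and 146.2 FPKM (−0.23, adjusted p = 0.72) and Fhl2 at 8.55 and 3.52 FPKM (−1.07, adjusted p = 0.197).

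The smooth muscle marker sum was also higher in WT than in Sp3−/− HE1, and the blood progenitor sum was lower. Both calls were lost when single samples were left out. Without WT HE1 replicate 1, which had the marker sum of 1940 FPKM, Csrp1 differed by −0.50 (adjusted p = 0.456) and Fhl2 by −1.66 (adjusted p = 0.139). Without Sp3−/− HE1 replicate 1 the differences were −1.06 and −2.04 (adjusted p = 0.116 and 0.0688), and without replicate 2 −0.91 and −1.88 (0.212 and 0.117). The Csrp1 call also passed to between 0.0502 and 0.0521 without single samples of WT Flk1+ cells or of Sp3−/− ESC, Flk1+ or progenitor cells, which are outside the comparison. With HE1 fitted alone they were 0.206 and 0.102, and without the intensity trend Csrp1 was not called (0.0578). None of the 7 smooth muscle and mesenchyme markers was under 0.1 FPKM in any HE1 sample. The part of either marker list in the result was not tested.

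The remaining differences of Csrp1 from WT were smaller and uncalled. In Sp3−/− Csrp1 was at 63.5% of WT in HE2, 63.8% in progenitor cells and 65.9% in Flk1+ cells, with both mutant samples below both WT samples in each and adjusted p = 0.16, 0.204 and 0.209. The Flk1+ difference was called with that population fitted alone (0.034). In Sp1ΔDBD/ΔDBD progenitor cells it was at 64.1 and 58.7 FPKM against 88.5 and 99.1 FPKM in WT (−0.61, adjusted p = 0.24).

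Csrp2 was lower than WT without overlap in Flk1+ cells and HE1 of both mutants. In Flk1+ cells it was at 32.6 and 34.0 FPKM in Sp1ΔDBD/ΔDBD and 36.7 and 42.0 FPKM in Sp3−/−, against 61.3 and 70.1 FPKM in WT. In HE1 it was at 117.6 and 55.2 FPKM and at 88.8 and 100.6 FPKM, against 197.9 and 161.8 FPKM. None of these was called with all samples in the fit, the HE1 differences being −1.15 (SE 0.54, adjusted p = 0.194) and −0.92 (adjusted p = 0.296) and the Flk1+ differences −0.98 (adjusted p = 0.356) and −0.74 (adjusted p = 0.418). With Flk1+ cells fitted alone the latter pair were called (0.0353 and 0.0308). The 2 samples of WT and Sp1ΔDBD/ΔDBD differed widely for Csrp2 in HE2 (74.1 and 38.7, and 54.4 and 16.5 FPKM) and in progenitor cells (31.8 and 10.9, and 26.7 and 8.18 FPKM), where all genotypes overlapped. The smooth muscle and mesenchyme marker sum differed in the same direction between these samples, at 490.9 and 78.2 FPKM in WT HE2, 405.5 and 41.1 FPKM in Sp1ΔDBD/ΔDBD HE2, 306.6 and 89.8 FPKM in WT progenitor cells, and 156.2 and 22.7 FPKM in Sp1ΔDBD/ΔDBD progenitor cells, and its part was not tested. In Sp3−/− ESC Csrp2 was above WT without overlap, at 117.2 and 118.0 FPKM against 94.2 and 77.1 FPKM (0.46, adjusted p = 0.673).

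Fhl1, a protein of the contractile apparatus in muscle, was at 11.6 and 11.4 FPKM in Sp3−/− ESC, 9.81 and 12.2 FPKM in Flk1+ cells and 27.2 and 30.3 FPKM in HE1, each below both WT samples, at 64.1%, 65.9% and 52.5% of the WT mean. The smallest adjusted p was 0.156, in HE1 (−0.84, SE 0.37). In Sp1ΔDBD/ΔDBD no population stood apart from WT in Fhl1, with means from 66.9% of WT in HE1 to 109% in ESC. Fhl2 outside HE1 was at 0.262 to 5.64 FPKM in all genotypes, and its only differences without overlap were a higher level in Sp1ΔDBD/ΔDBD ESC (1.20 and 0.997 FPKM, adjusted p = 0.495) and a lower one in Sp3−/− HE2 (1.91 and 1.98 FPKM, adjusted p = 0.292).

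The comparison of Sp3−/− with WT called 11.3% of all genes in ESC, 12.6% in Flk1+ cells, 10.9% in HE1, 13.8% in HE2, and for progenitor cells 8.65%, beside 0, 0, 2, 0 and 0 of the 6 genes. The 25 tests against WT in the Sp1 mutant without Crip1 gave 1 call, and 4 had an unadjusted p under 0.05. In Sp3−/− 7 of 30 did.

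**Figure D4:**
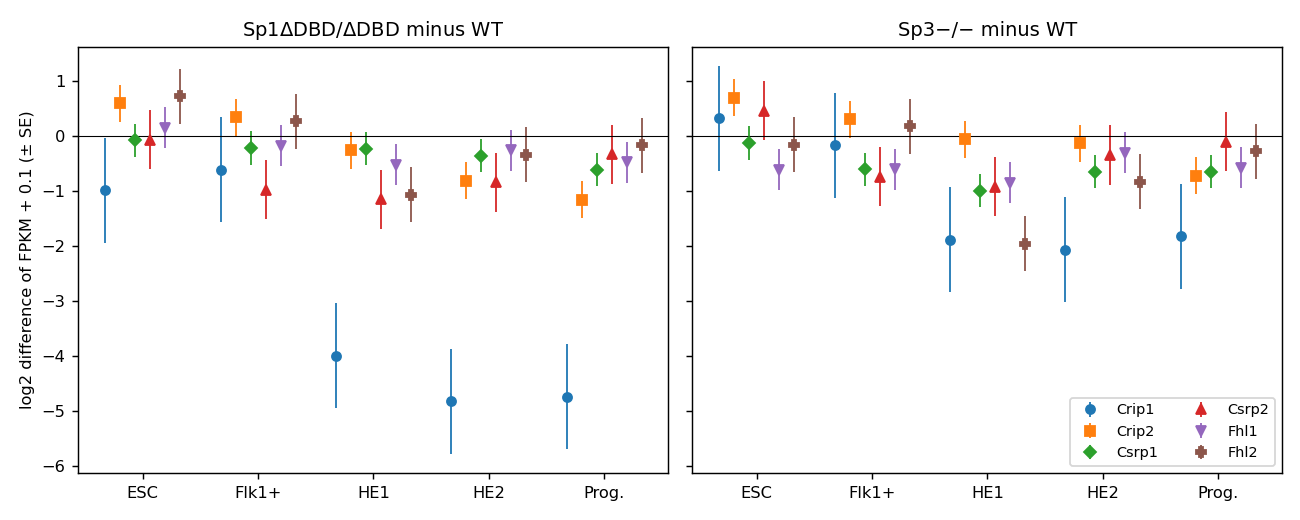
Difference of each gene from WT in Sp1ΔDBD/ΔDBD (left) and Sp3−/− (right) in the 5 populations, on the log2(FPKM + 0.1) scale; points are limma estimates and bars are ± SE. Crip1 lies at −4.00, −4.81 and −4.73 in the later Sp1ΔDBD/ΔDBD populations and near −2 in those of Sp3−/−, and the other 5 genes lie between −2 and 1.

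**Figure D5:**
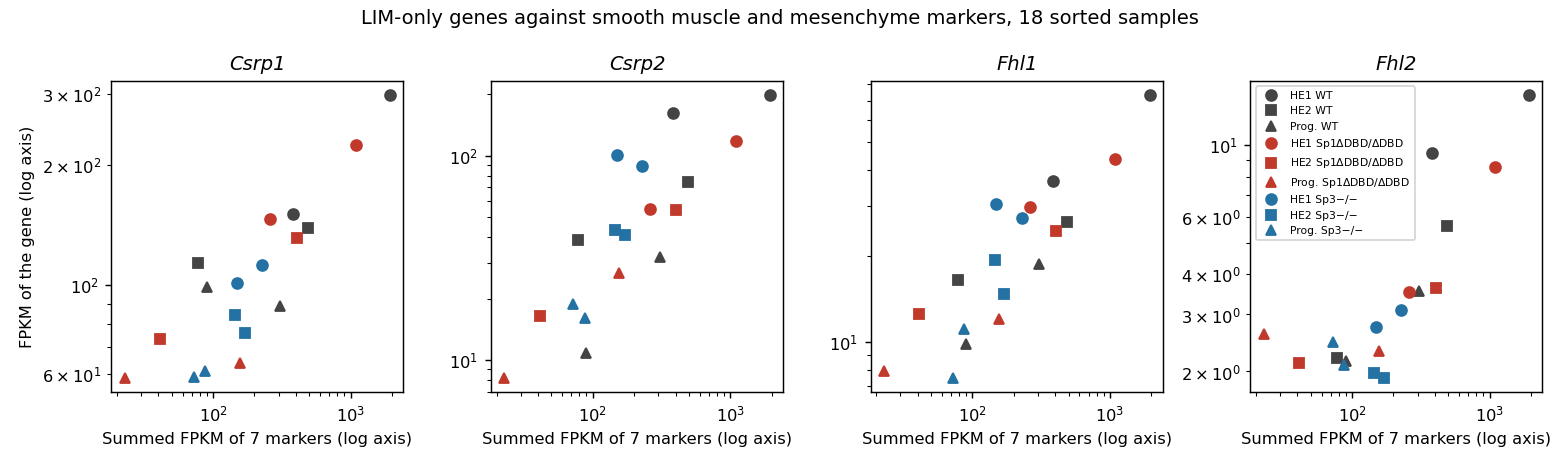
FPKM of Csrp1, Csrp2, Fhl1 and Fhl2 against the summed FPKM of 7 smooth muscle and mesenchyme markers in the sorted samples, both on log axes; colour is the genotype and shape the population. WT HE1 replicate 1, with the highest marker sum of 1940 FPKM, also has the highest level of each of the 4 genes.

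The mutants were also set against each other. Crip1 was higher in Sp3−/− than in Sp1ΔDBD/ΔDBD in every population by the means, for example 32.5 and 8.05 FPKM in HE1 and 11.4 and 1.81 FPKM in HE2, which is given without a test. For the other 5 genes, limma called 0 of 25 differences, with 1 at an unadjusted p under 0.05. That was Csrp1 in HE1, lower in Sp3−/− by −0.76 (SE 0.30, adjusted p = 0.103). All genes were called at 9.67% in ESC, 7.39% in Flk1+ cells, 13.6% in HE1, 15.9% in HE2, and for progenitor cells 11.6%.

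Whether an effect against WT differed between a later population and ESC was tested as an interaction, with 0 of 44 called by limma and 5 at an unadjusted p under 0.05. The nearest was Crip2 in Sp1ΔDBD/ΔDBD, whose effect was 0.60 in ESC and −1.16 in progenitor cells, a difference of −1.75 (SE 0.48, adjusted p = 0.053), and this was called without WT progenitor replicate 2 (adjusted p = 0.0247). It was also called without either Sp1ΔDBD/ΔDBD HE2 sample (0.0112 each), which are outside this comparison, as was the Sp3−/− interaction of Crip2 in progenitor cells (−1.42, adjusted p = 0.142, or 0.0479 and 0.0478). The Crip2 interaction in Sp1ΔDBD/ΔDBD HE2 was −1.41 (adjusted p = 0.136) and was called without mutant replicate 1 (0.00605). That of Csrp2 in Sp3−/− Flk1+ cells was −1.20 (adjusted p = 0.552) and was called with the populations fitted alone (0.0441). For Sp3−/− the interaction of Fhl2 between HE1 and ESC was −1.80 (SE 0.71, adjusted p = 0.197), and that of Crip1 was −2.20 (SE 1.35, adjusted p = 0.439). The latter SE was 0.56 without Sp1ΔDBD/ΔDBD progenitor replicate 2 or 1, which were left out after seeing the data. Of all genes, 1.74%, 3.99%, 2.62% and 3.15% were called for the Sp1 mutant in Flk1+ cells, HE1, HE2 and progenitor cells, and 1.48%, 2.16%, 0.544% and 1.34% for Sp3−/−.

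Over all 15 groups the courses of the 6 genes were not all alike, although in WT each was highest in HE1. Across the 15 group means of log2(FPKM + 0.1), which share libraries between genes, Pearson's r was 0.90 for Csrp1 with Fhl2 and 0.88 for Crip2 with Fhl1. It was 0.77 for Crip1 with Csrp2 and 0.56 for Crip1 with Crip2. Csrp1 and Csrp2, named as relatives, had r = 0.07, and Crip1 had r = 0.06 with Csrp1 and 0.01 with Fhl2. Every r of Crip1 takes in the Sp1 mutant values by which it was picked, so its low r values are partly set by that choice.

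Of the 12016 genes above 3 FPKM in at least 1 group mean, those most like Crip1 over the 15 group means were 2200002D01Rik (r = 0.94), Cyp4f16, a cytochrome P450 (0.93), Selenom, a selenoprotein of the endoplasmic reticulum (0.92), Pkd2, the polycystin 2 channel (0.91), and Cd276, an immune checkpoint ligand (0.90). Since the Sp1 mutant is part of that pattern, the likeness takes in the values by which Crip1 was picked. 2200002D01Rik was at a mean of 6.27 FPKM in WT HE1, 0.577 FPKM in Sp1ΔDBD/ΔDBD HE1 and 1.85 FPKM in Sp3−/− HE1, and Selenom at 9.36, 1.01 and 3.43 FPKM. On FPKM without the log, 1 of the 5 remained among the nearest 5, and with Spearman's rho 2 did.

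Nearest to Crip2 were Fam129b (r = 0.97), Uaca (0.96) and Bcl6b (0.95), a transcription factor of endothelium. Those of Csrp1 included Crim1 (0.98) and Lxn (0.97). For Csrp2 they were Ak1 (0.94), Plekhb2 (0.94) and Tanc1 (0.93), for Fhl1 Fndc3b (0.94), the matrix protein Tnc (0.93) and Fkbp10 (0.93), and for Fhl2 Tmed2 (0.96), Serinc1 (0.95) and the myosin light chain Myl6 (0.95). Of each of these lists of 3, at most 1 gene remained on FPKM or with Spearman's rho.

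Around Crip1 and Crip2, 3 of the 8 nearest other annotated genes were in the table. Mta1, next to Crip2 and part of a chromatin remodelling complex, differed from WT by −0.30 to 0.19 in Sp1ΔDBD/ΔDBD, and Pacs2, a sorting protein, by 0.07 to 0.45, with no call in either. Tmem121 was at 0.00595 to 3.24 FPKM in Sp1ΔDBD/ΔDBD and 0.0997 to 2.77 FPKM in WT, with differences of 0.63 in ESC, −0.34 in Flk1+ cells, −0.93 in HE1, −0.75 in HE2 and, for progenitor cells, −1.31 (adjusted p = 0.0842), also with no call. In Sp3−/− it was at 1.20 to 6.15 FPKM and was called higher in ESC (1.83, adjusted p = 0.0141), Flk1+ cells (1.84, 0.0129), HE2 (1.84, 0.0126) and progenitor cells (2.31, 0.00456). The median difference over 494 chromosome 12 genes in the Sp1 mutant was between 0.01 and 0.11 in all populations, close to that of all genes (0.00 to 0.05).

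Other LIM genes were looked at as lists. Of 45 cytoskeletal LIM genes 31 were in the table, and of these 7 were called lower and 1 higher in Sp3−/− HE1, with a median difference of −0.34 beside 0.05 for all genes and 10.9% of all genes called in either direction. In Sp3−/− HE2 and progenitor cells 4 and 7 were lower and 3 and 2 higher, and in the Sp1 mutant 3, 4 and 5 were lower and 0, 2 and 0 higher in HE1, HE2 and progenitor cells. The shares of all genes called there were 13.8% and 8.65% in Sp3−/− and 10%, 9.67% and 8.78% in the Sp1 mutant. ESC and Flk1+ cells had at most 2 in either direction, where 5.54% to 12.6% of all genes were called. Of the called genes, Ajuba, an adaptor at cell junctions, had the largest rise (42.1 and 46.6 FPKM in Sp3−/− HE2 against 12.7 and 14.9 FPKM, 1.68, adjusted p = 2.31e-05), followed by the actin bundler Lima1 in Sp1ΔDBD/ΔDBD Flk1+ cells (1.51, adjusted p = 0.000561). Pdlim4 in Sp3−/− HE1 (−3.51, adjusted p = 0.000451) and Prickle3 in Sp1ΔDBD/ΔDBD progenitor cells (−2.10, adjusted p = 0.000737) had the largest falls. Both started low, Pdlim4 from 1.94 and 1.09 FPKM in WT and Prickle3 from 0.287 and 0.442 FPKM. Prickle3 was lost under another setting (adjusted p = 0.106). With the population fitted alone, Ajuba (0.0391) and Lima1 (0.0383) were called, and Pdlim4 (0.0756) and Prickle3 (0.0544) were not.

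Of 16 nuclear LIM genes 7 were in the table, with at most 3 called in any comparison. These 3 were higher in Sp3−/− Flk1+ cells, where 12.6% of all genes were called in either direction. Lmo1, a nuclear adaptor, was at 26.8 and 13.9 FPKM in Sp3−/− Flk1+ cells against 1.77 and 1.89 FPKM in WT (3.33, adjusted p = 0.00101, or 0.0696 with Flk1+ cells fitted alone). The next called rise was that of Lmx1a in Sp1ΔDBD/ΔDBD progenitor cells (1.70 and 0.631 FPKM against 0.139 and 0.106 FPKM, adjusted p = 0.00253). The largest called falls were Isl1 in Sp1ΔDBD/ΔDBD HE1 (−1.65, adjusted p = 0.0047) and Lmo4 in Sp3−/− ESC (−0.81, adjusted p = 0.0251). Isl1 was at 0.0992 and 0.206 FPKM in the mutant against 0.87 and 0.517 FPKM in WT. Both falls and the rise of Lmx1a were lost when single samples were left out.

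Of 31 actin, SRF and partner genes 29 were in the table. In Sp3−/− HE1 8 were called lower and 0 higher, with a median of −0.65 beside 0.05 for all genes, of which 10.9% were called in either direction, and 4 of the list are also smooth muscle markers. In the other Sp3−/− populations the calls went both ways, with 2 higher and 1 lower in ESC, 1 and 2 in Flk1+ cells, 2 and 3 for HE2, and 1 and 2 for progenitor cells. The shares of all genes called there in either direction were 11.3%, 12.6%, 13.8% and 8.65%. Without WT HE1 replicate 1, which was left out after seeing the data, the median was −0.58 beside 0.03 for all genes. That of the cytoskeletal LIM genes was then −0.29. Fewer genes of both lists were called lower in that fit, which had only 1 WT HE1 sample. In the Sp1 mutant 0 of the 29 were called in HE1 and HE2 and 3 were lower in progenitor cells. In its ESC 2 were higher and in its Flk1+ cells 1 was higher. Of all genes, 6.06%, 5.54%, 10%, 9.67% and 8.78% were called in either direction from ESC to progenitor cells of this mutant. Actg2, a smooth muscle actin, had the largest called fall, from 6.0 and 0.886 FPKM in WT HE1 to 0.00151 and 0.0096 FPKM in Sp3−/− (adjusted p = 0.0163, up to 0.192 with single samples left out). It was followed by Myl9 in Sp1ΔDBD/ΔDBD progenitor cells (−2.40, adjusted p = 0.0427, up to 0.326). The largest called rises were Gata4 in Sp3−/− ESC (1.80, adjusted p = 0.00354, up to 0.0537), at under 1 FPKM, and Ldb2 in Sp1ΔDBD/ΔDBD ESC (1.15, adjusted p = 0.0461, up to 0.225), at under 0.2 FPKM. With their populations fitted alone, none of Actg2, Myl9, Gata4 and Ldb2 was called (0.0998, 0.179, 0.0684 and 0.0673). Over the other settings of the fit to all samples, their highest limma adjusted p was 0.0222, 0.0575, 0.113 and 0.764 in order.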

How the data were processed

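Total RNA was sequenced after ribosomal depletion in 30 samples, 2 in each of 15 groups taken from the sample labels. The authors aligned the trimmed reads to mm10 with HISAT2 2.1.0, estimated FPKM with StringTie 1.3.3, dropped genes that never passed 1 FPKM, and put all samples on the same distribution by quantile normalisation. The gene annotation used is not given in the sources used here. The deposited values are FPKM with no counts, so the depth of each sample is unknown and counting error cannot be given. As a result a change in total RNA is not visible and values near the low end are set by rank.

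Of 14685 genes, the 14525 above 1 FPKM in at least 1 sample as deposited were tested. Differences were fitted with limma 3.58.1 in R 4.3.3 on log2(FPKM + 0.1) with 15 group means over all 30 samples and an intensity trend, giving 15 residual degrees of freedom. P-values are two-sided and Benjamini-Hochberg adjusted over all genes within a comparison, with a threshold of 0.05. With 2 samples a group, the smallest exact permutation p is 0.333. The fit was tested on simulated data. Alternatives were a pseudocount of 1, a group mean minimum of 3 FPKM, another scaling, no trend, the compared populations fitted alone, a replicate block and each sample left out; a group then left with 1 sample is assumed to vary like the others.

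The 6 genes and all lists were chosen with earlier results of these data known. Genes named beside them were the 5 (Crip1) or 3 with the highest Pearson correlation over group means, Sp1 and Sp3, the tabled ones of the 4 nearest genes on each side, and per list the 2 largest called rises and falls. Itga2b was named after its values were seen. Of the genes most like Csrp1, 1 is not reported here.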

Additional observations from a re-analysis of the deposited data

How the results depend on the processing

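Of 172 single differences tested, 24 were called, and none of the 24 changed sign in any alternative run. The shares of all genes called, as counted above, ran from 0.544% to 52.2% over these comparisons. Against WT the count of calls in Sp3−/− was 2, and it was 1 without the intensity trend, 5 with a pseudocount of 1, and 0 to 5 with single samples left out. In the Sp1 mutant it was 1, and 0 without the trend or with a pseudocount of 1, and 0 to 2 with single samples left out. Leaving out single samples gave 8 to 16 calls between WT populations, 6 to 12 between Sp3−/− populations, 0 to 1 between the mutants and 0 to 3 for effects that differ from ESC, the last being 1 with populations fitted alone. The cause of these changes was not tested. Median ratio scaling moved group means by a factor of 0.944 to 1.087.

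The labels do not say that replicate numbers mark shared cultures. Deviations of same-numbered samples within a population correlated at 0.169 to 0.443 between WT and the Sp1 mutant and at −0.0255 to 0.151 between WT and Sp3−/−. Across the sorted populations they correlated at 0.31 to 0.38 in WT, 0.347 to 0.543 in the Sp1 mutant and 0.0317 to 0.131 in Sp3−/−. With a replicate block within population the Sp1 mutant had 0 calls against WT, the mutants differed in 1, and the WT and Sp3−/− steps had 13 and 12 calls. With a replicate block across the sorted populations, chosen after seeing the data, the Sp3−/− steps had 15 calls in place of 9 and the WT steps 16 in place of 12. Within population and across the sorted populations, the blocks called Csrp1 from WT HE1 to HE2 (0.0282 and 0.0346) and Csrp2 from WT HE2 to progenitor cells (0.0133 and 0.000111), and the latter block also Fhl1 there (0.0224). Csrp2 from WT HE2 to progenitor cells and from Sp3−/− Flk1+ cells to HE1 was also called without single HE2 or progenitor samples of the Sp1 mutant (0.0355 to 0.0378).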
